A study of Mus musculus with 2 samples.

Results

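Genes of the mitochondrial genome were the rows of the expression table whose symbol starts with mt-, and 26 of the 14197 genes met this rule. They comprise 9 mRNAs, 2 rRNAs and 15 tRNAs. The table was made from 4T1 cells, a wild-type murine mammary carcinoma line, treated with 20 μM astragalin (AS), a plant flavonoid glycoside, or with the vehicle. Total RNA was collected at 24 h, and 1 library per condition was prepared with a stranded mRNA kit. The library sizes implied by the deposited values were 44909683 reads with AS and 50820728 reads with the vehicle. They are the totals behind the authors' scaling and may leave out sequenced reads. Shares of a library given below are shares of these totals. Since each condition has 1 library, no difference given here has a replicate check and no p-value was computed. Other ways in which the cultures may have differed cannot be told apart from the treatment. The bracketed ranges are 95% Clopper-Pearson intervals of the reads and cover counting error only. Reads without molecular identifiers are not independent molecules.

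Epithelial markers were present in both libraries. All 8 listed markers had a row, among them Krt18 (707 RPKM with AS and 902 RPKM with the vehicle) and Epcam (335 and 357 RPKM), where RPKM is reads scaled to exon length and library size. Of the markers of leukocytes, endothelium and fibroblasts, Cd3e, Adgre1, Pecam1 and Cdh5 had no row among those used here. The leukocyte marker Ptprc was at 0.116 RPKM with AS and 0.114 RPKM with the vehicle, Col1a1 at 0.896 and 0.711 RPKM, and Pdgfra, the most abundant of these, at 4.24 and 4.16 RPKM.

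The mitochondrial genome is a small circle that encodes core subunits of the respiratory chain and ATP synthase, together with the rRNAs and tRNAs that translate them. Both strands are transcribed into long precursors, and the tRNAs that lie between the other genes are cut out, which releases the mRNAs and rRNAs. Most mitochondrial mRNAs then receive a short poly(A) tail, whereas the tRNAs receive the bases CCA at the 3′ end. All other subunits of the chain, and all proteins that copy and process this genome, come from nuclear genes. The mouse annotation GENCODE M21 (GRCm38) lists 37 genes on chrM, namely 13 mRNAs, 2 rRNAs and 22 tRNAs. The mRNAs mt-Co2, mt-Atp8, mt-Atp6 and mt-Co3 and the tRNAs mt-Tf, mt-Tv, mt-Ti, mt-Ts1, mt-Td, mt-Tk and mt-Tg have no row among those used here. Of these 11 genes, the block from mt-Ts1 to mt-Tg is continuous on the genome (chrM:6870-9458). The exon length implied by the values equaled the annotated length for all 11 mRNAs and rRNAs with a row, while the tRNA lengths were used to fix the library sizes.

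The tRNAs with the largest differences in either direction are shown first, with mt-Ty, the most abundant tRNA row. Each is given as the gene sequence of GRCm38 from 5′ to 3′ without the added CCA, and the capitals mark the anticodon. The tRNAs mt-Tr (arginine, chrM:9808-9875), mt-Th (histidine, chrM:11546-11612) and mt-Ts2 (serine, chrM:11613-11671) are read from the plus strand, and mt-Tp (proline, chrM:15356-15422), mt-Tq (glutamine, chrM:3772-3842) and mt-Ty (tyrosine, chrM:5260-5326) from the minus strand.
mt-Tr: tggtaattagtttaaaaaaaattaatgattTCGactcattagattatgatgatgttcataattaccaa
mt-Th: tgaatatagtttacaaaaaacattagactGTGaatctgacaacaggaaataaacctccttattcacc
mt-Ts2: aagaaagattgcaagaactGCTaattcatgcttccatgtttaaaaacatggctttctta
mt-Tp: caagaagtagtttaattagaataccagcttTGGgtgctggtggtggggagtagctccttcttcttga
mt-Tq: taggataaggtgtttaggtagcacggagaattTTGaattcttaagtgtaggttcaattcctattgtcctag
mt-Ty: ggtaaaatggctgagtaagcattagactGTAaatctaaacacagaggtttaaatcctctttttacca

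Most genes of the mitochondrial genome were slightly lower with AS. Of the 26 genes, 19 were lower and 7 were higher, a share higher of 26.9%, whereas 60.9% of all genes in the table were higher. Their median log2 fold change was -0.15 and that of all genes was 0.07. Fold changes compare AS with the vehicle on a log2 scale, with 0.1 RPKM added to each level. None of the 26 genes was past 2-fold, where 0.662% of all genes were higher and 0.31% lower by as much. At 1.5-fold, mt-Tr and mt-Th were lower and 0 were higher, against 2.01% of all genes lower and 3.56% higher, and mt-Rnr1 lay just outside the threshold at -0.58. The counting interval lay below 0 for 16 genes, above 0 for 3 and held 0 for 7. Over all 14197 genes it lay below 0 for 2805, above 0 for 5334 and held 0 for 6058. With TMM scaling the numbers for the 26 genes were 17, 0 and 9. Whether an interval holds 0 also depends on the number of reads. The median of the reads of both libraries together was 194016 for the mRNAs, 585 for the tRNAs and 1774 for all genes. In bulk RNA, fewer cells with a transcript and less of it per cell cannot be told apart. The number of higher genes, 7, became 5 with TMM scaling and 12 when the libraries were scaled to the summed reads of the mitochondrial mRNAs.

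**Figure D1:**
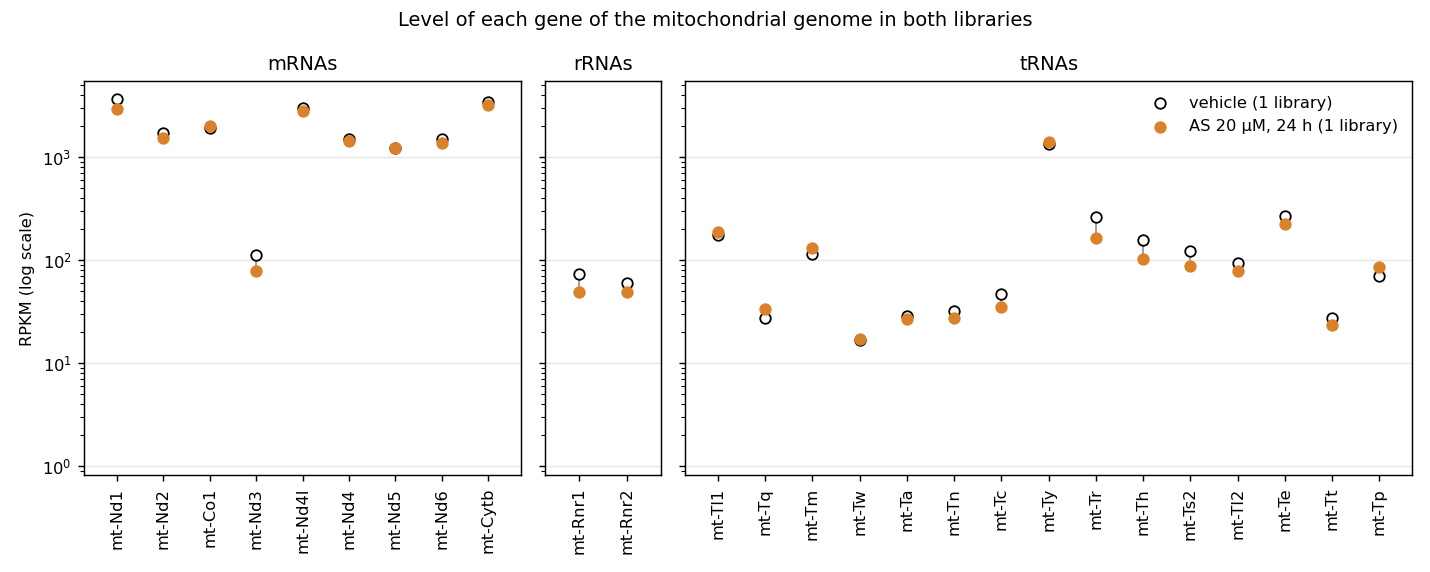
Level of each of the 26 genes (x axis) in RPKM on a log scale (y axis), by RNA class; open circles are the vehicle library and filled circles the AS library. The mRNAs other than mt-Nd3, and the tRNA mt-Ty, lie above 1000 RPKM in both libraries, and the rRNAs lie below 100 RPKM.

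Together the 26 genes held 5.35% of the summed RPKM with AS and 5.58% with the vehicle. In reads this was 775563 with AS and 942848 with the vehicle, or 1.73% (95% Clopper-Pearson interval 1.72 to 1.73) and 1.86% (1.85 to 1.86) of each library. Nearly all of it came from the mRNAs, with 1.70% and 1.82% of the reads. The rRNAs held 0.0125% with AS and 0.0164% with the vehicle, and the tRNAs 0.0179% and 0.0189%. Each class thus took a smaller share of the AS library, and the interval of the AS share lay below that of the vehicle in each class.

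The mRNAs were the most abundant class and the one with the smallest differences. Their median log2 fold change was -0.10, with 8 of 9 lower, where 60.9% of all genes were higher. This median was -0.17 with TMM scaling and -0.15 without the genes that have a near-identical nuclear copy. It was 0.0014 when scaled to the summed mitochondrial mRNA reads. mt-Cytb, the cytochrome b subunit of complex III, was at 3231 RPKM with AS and 3418 RPKM with the vehicle, rank 8 of all genes in both libraries. In log2 fold change it was at -0.08 (-0.09 to -0.07). mt-Co1, the catalytic subunit of cytochrome c oxidase, was at 1996 RPKM with AS and 1926 RPKM with the vehicle. It was the only mRNA above 0 in log2 fold change, at 0.05 (0.04 to 0.06), and this turned to -0.02 with TMM scaling.

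The other 7 mRNAs encode membrane subunits of complex I, the NADH dehydrogenase, and all 7 were lower with AS. mt-Nd1 was at 2953 RPKM with AS and 3669 RPKM with the vehicle, with 126895 and 178450 reads. A log2 fold change of -0.31 (-0.32 to -0.30) made it the lowest among the mRNAs above 1000 RPKM. mt-Nd2 followed with 1526 and 1731 RPKM and a log2 fold change of -0.18 (-0.20 to -0.17). These 2 genes are the first mRNAs after the rRNAs in the direction of plus-strand transcription. Of the other mRNAs of complex I above 1000 RPKM, all differed less than these. mt-Nd4l was at 2777 RPKM with AS and 2976 RPKM with the vehicle (log2 fold change -0.10), and mt-Nd4, which overlaps it by 7 bases, at 1448 and 1491 RPKM (-0.04). mt-Nd5 was at 1217 and 1234 RPKM (-0.02). mt-Nd6, the only mRNA of the minus strand, was at 1369 RPKM with AS and 1496 RPKM with the vehicle (-0.13), and it overlaps mt-Nd5 by 14 bases on the other strand. With TMM scaling all 7, and mt-Cytb, were lower by a further 0.07, which gave -0.17 for mt-Nd4l, -0.11 for mt-Nd4, -0.09 for mt-Nd5 and -0.15 for mt-Cytb. When scaled to the summed mitochondrial mRNA reads, the log2 fold changes of mt-Nd4l, mt-Nd4, mt-Nd5 and mt-Cytb were above 0, at 0.0014, 0.06, 0.08 and 0.02, while those of mt-Nd1, mt-Nd2, mt-Nd3 and mt-Nd6 stayed below 0.

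mt-Nd3 stood apart from the other mRNAs in both level and fold. This complex I subunit gene (chrM:9459-9806) was at 78.8 RPKM with AS and 113 RPKM with the vehicle, from 1231 and 2001 reads. It ranked 640 and 455 among all genes, where the other 8 mRNAs ranked between 7 and 35. The log2 fold change, -0.52 (-0.63 to -0.42), was the lowest of the 9 mRNAs. Without it, the mRNA median was -0.09.

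**Figure D2:**
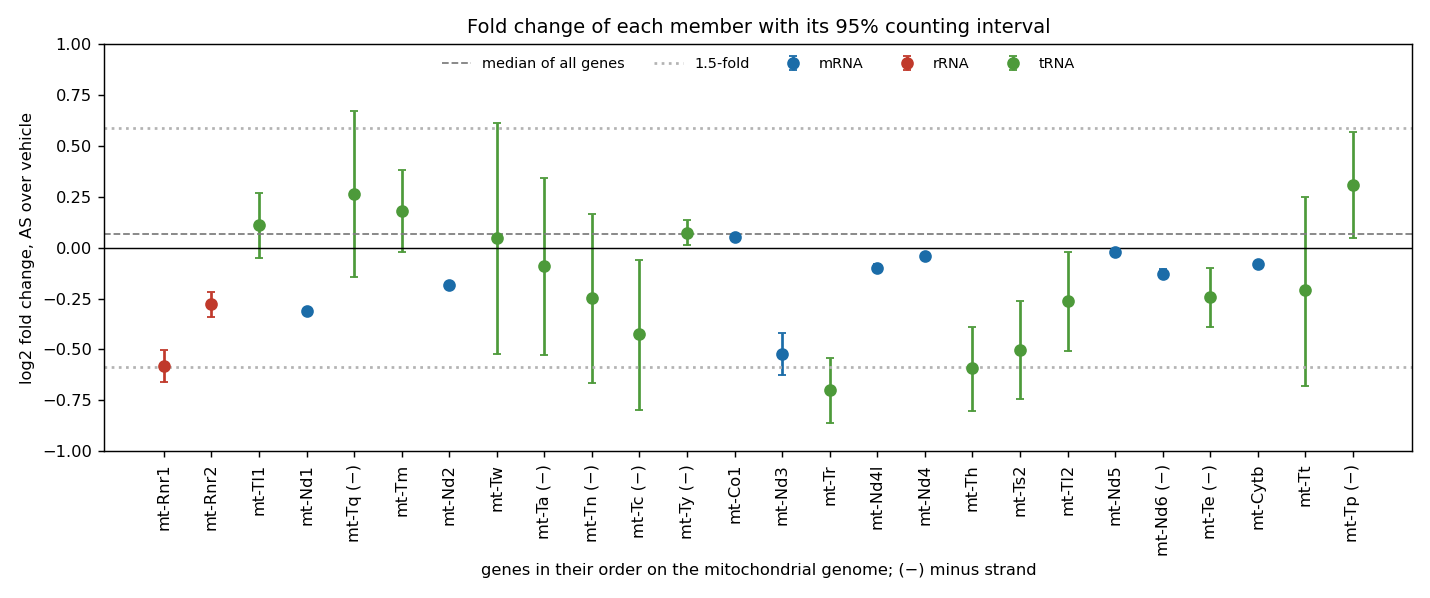
log2 fold change of AS over vehicle (y axis) of the 26 genes in their order on the genome (x axis), colored by RNA class; bars are 95% counting intervals, the dashed line is the median of all genes (0.07) and dotted lines are 1.5-fold. The intervals of the mRNAs above 1000 RPKM are narrower than their points, and mt-Rnr1, mt-Nd3, mt-Tr, mt-Th and mt-Ts2 lie at or below -0.50.

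Several mitochondrial mRNAs have near-identical copies in the nuclear genome, and the counts of these copies bear on the values above. A stretch of mitochondrial DNA inserted on chromosome 1 (chr1:24611535-24616197, minus strand, GRCm38) is annotated as 7 unprocessed pseudogenes, which were looked at after the values of the 26 genes were seen. Of the 4 mRNAs that lack a row, 3 have a copy there that is 100% identical over its whole length, and these copies had some of the highest levels in the table. Gm10925, the copy of mt-Atp6 (ATP synthase), was at 9317 RPKM with AS and 9471 RPKM with the vehicle, rank 2 and rank 3 of all genes, with a log2 fold change of -0.02 (-0.03 to -0.02). Gm28661, the copy of mt-Co2 (cytochrome c oxidase), was at 7346 and 7947 RPKM, with a log2 fold change of -0.11 (-0.12 to -0.11). Gm28437, the copy of mt-Co3 (cytochrome c oxidase), was at 1858 and 1951 RPKM, with a log2 fold change of -0.07 (-0.09 to -0.06). The genes mt-Nd4l and mt-Nd4 show the opposite arrangement, since the mitochondrial gene has a row and its identical copy, Gm10222 or Gm28439 (the latter of part of mt-Nd4), has none among those used here. Reads from 2 identical sequences cannot be told apart, and how the authors' counting assigned them is not given in the sources used here.

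For mt-Co1 and mt-Nd3 both the mitochondrial gene and its copy had a row. Gm29216, a copy of part of mt-Co1 with 1 difference in 483 aligned bases, was at 1731 RPKM with AS and 1654 RPKM with the vehicle. The log2 fold changes were 0.07 (0.05 to 0.09) for the copy and 0.05 for mt-Co1. Gm28438 differs from mt-Nd3 at 1 of 345 aligned bases. That base lies at position 3, counted from 1 at the start of the gene, and is in capitals in the first 33 bases of each gene.
mt-Nd3: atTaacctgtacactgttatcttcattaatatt
Gm28438: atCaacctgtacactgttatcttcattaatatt
Gm28438 was at 125 RPKM with AS and 156 RPKM with the vehicle, from 1940 and 2737 reads, which is higher than mt-Nd3 itself in both libraries. Its log2 fold change was -0.32 (-0.40 to -0.23), and that of the reads of both genes together was -0.40 (-0.47 to -0.34). Copies elsewhere were far lower. Gm13341, a copy of mt-Co2 on chromosome 2 with 95.9% identity, was at 31.1 and 30.7 RPKM, and Gm13340, a copy of mt-Co1 on chromosome 2 with 97.6% identity, at 3.78 and 2.18 RPKM.

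The 5 chromosome 1 rows held 613884 reads with AS (1.37% of the library) and 723102 reads with the vehicle (1.42%). They made up 44.6% of the summed reads of mitochondrial mRNA rows and copies with AS and 43.9% with the vehicle. With the copies added to the mRNA they match, 12 mRNAs had a median log2 fold change of -0.09, of which 11 were lower and mt-Co1 was higher. The 26 genes and the 5 copies together held 3.09% of the AS library and 3.28% of the vehicle library. In each, the reads that no row accounts for were few, 89535 with AS (0.199%) and 97110 with the vehicle (0.191%). If these all came from the 4 mRNAs without a row, the mean would be 847 RPKM with AS and 812 RPKM with the vehicle. This is below the level of each of the 3 identical copies. The library size used here is the total behind the RPKM, and whether it includes reads set aside for several matches is not known. The mean therefore sets no limit on the RNA of these 4 genes.

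**Figure D3:**
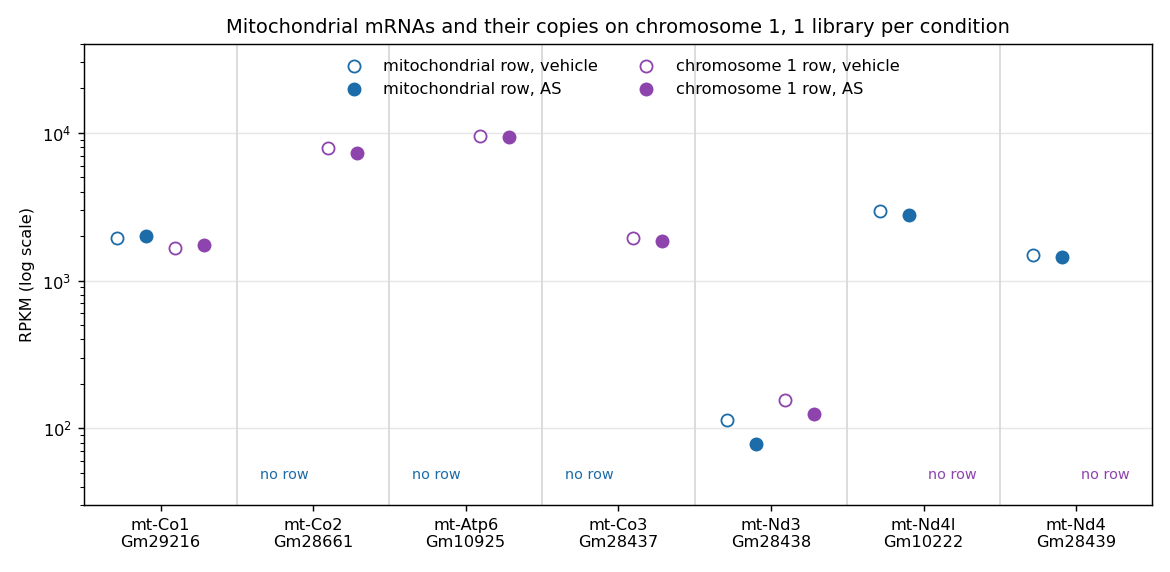
RPKM on a log scale (y axis) of 7 mitochondrial mRNAs (blue) and of their copies on chromosome 1 (purple), with open circles for the vehicle and filled circles for AS; names on the x axis give the mitochondrial gene above its copy. mt-Co2, mt-Atp6 and mt-Co3 have values only in the row of the copy, mt-Nd4l and mt-Nd4 only in the mitochondrial row, and mt-Co1 and mt-Nd3 in both.

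The rRNAs were both lower with AS. mt-Rnr1, the RNA of the small subunit of the mitochondrial ribosome (chrM:70-1024), was at 48.7 RPKM with AS and 72.9 RPKM with the vehicle, with 2089 and 3537 reads. The difference was -33.2%, or on the log2 scale -0.58 (-0.66 to -0.50). mt-Rnr2, the RNA of the large subunit (chrM:1094-2675), was at 49.3 and 59.9 RPKM, with 3506 and 4813 reads and a log2 fold change of -0.28 (-0.34 to -0.22). The median of the class was -0.43, the lowest of the 3 classes, and both genes stayed lower under each scaling tried. The interval of mt-Rnr1 lay wholly below that of mt-Rnr2.

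The tRNAs differed most among themselves. Of 15 genes, 9 were lower and 6 (40%) higher with AS, where 60.9% of all genes were higher. Their median log2 fold change was -0.21, with a range from -0.70 to 0.31. The median was -0.28 with TMM scaling and -0.11 when scaled to the summed mitochondrial mRNA reads. In all they had 8038 reads with AS and 9592 with the vehicle. Of the 15 genes, 14 had fewer than 1000 reads in each library. The interval lay below 0 for 6, above 0 for 2 and held 0 for 7, where over all 14197 genes these numbers were 2805, 5334 and 6058. Since a mature tRNA is shorter than most reads and carries no poly(A) tail, these rows may hold reads of precursors or of neighboring genes, and this was not tested.

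The 3 lowest tRNAs lay in a single part of the plus strand. mt-Tr, the arginine tRNA, was at 163 RPKM with AS and 265 RPKM with the vehicle, with 498 and 915 reads. At -0.70 (-0.86 to -0.54) it had the lowest log2 fold change of all 26 genes. It follows mt-Nd3 after a gap of 1 base, and these neighbors had similar folds, while mt-Nd4l, which begins 1 base after mt-Tr, was at -0.10. The next tRNAs along the strand are mt-Th, mt-Ts2 and mt-Tl2, which lie side by side between mt-Nd4 and mt-Nd5. mt-Th, the histidine tRNA, was at 103 and 156 RPKM, with 311 and 531 reads and a log2 fold change of -0.59 (-0.80 to -0.39). mt-Ts2, a serine tRNA, was at 87.2 and 123 RPKM (-0.50, interval -0.74 to -0.26). mt-Tl2, a leucine tRNA, was at 77.8 and 93.4 RPKM (-0.26, interval -0.51 to -0.02). All 3 were lower in log2 fold change than the mRNAs on either side of them, mt-Nd4 (-0.04) and mt-Nd5 (-0.02). The interval of mt-Tl2 overlapped those of both mRNAs, so for mt-Tl2 a difference from them was not detectable at this depth.

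The other tRNAs lower with AS had smaller or less certain differences. mt-Tc, the cysteine tRNA, was at 35.1 RPKM with AS and 47.1 RPKM with the vehicle, with 104 and 158 reads and a log2 fold change of -0.42 (-0.80 to -0.06). mt-Te, the glutamate tRNA, was at 225 and 267 RPKM, with -0.24 (-0.39 to -0.10). For mt-Tn (27.3 and 32.4 RPKM, -0.25), mt-Tt (23.6 and 27.3 RPKM, -0.21) and mt-Ta (26.8 and 28.5 RPKM, -0.09) the interval held 0, so no difference was detectable at this depth.

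Among the tRNAs higher with AS, the interval lay above 0 for mt-Tp and mt-Ty under the authors' scaling, and for neither with TMM scaling (mt-Tp 0.24, interval -0.02 to 0.50, and mt-Ty 0.01, interval -0.06 to 0.07). mt-Tp, the proline tRNA at the end of the coding part of the genome, was at 86.1 RPKM with AS and 69.6 RPKM with the vehicle, from 259 and 237 reads. Its log2 fold change of 0.31 (0.05 to 0.57) was the highest of the 26 genes. mt-Ty, the tyrosine tRNA, was at 1412 RPKM with AS and 1342 RPKM with the vehicle, from 4250 and 4570 reads, well above every other tRNA in both libraries. In log2 fold change it was at 0.07 (0.01 to 0.13), equal to the median of all genes when rounded, and mt-Co1, which lies 1 base away on the other strand, was at 0.05. The intervals of mt-Tq (33.2 and 27.7 RPKM, 0.26), mt-Tm (131 and 116 RPKM, 0.18), mt-Tl1 (188 and 174 RPKM, 0.11) and mt-Tw (17.3 and 16.7 RPKM, 0.05) held 0, and mt-Tw turned to -0.02 with TMM scaling. mt-Tl1 sits directly between mt-Rnr2 (-0.28) and mt-Nd1 (-0.31), with no base between them, and was higher than both in log2 fold change.

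The strand of origin separated the genes only slightly. The 18 genes read from the plus strand had a median log2 fold change of -0.20 and the 8 genes of the minus strand one of -0.11. Among the tRNAs the medians were -0.24 for 8 plus-strand genes and -0.09 for 7 minus-strand genes, and both groups ranged from below -0.40 to above 0. Some genes on opposite strands overlap, as mt-Nd5 with mt-Nd6, or have a gap of only 1 base, as mt-Ty with mt-Co1. Reads that cover both genes of such a pair can be separated only if the counting used the strand. The kit marks the strand, but the setting used in counting is not given in the sources used here.

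The folds of the tRNAs went together with the base composition of their genes, a comparison that was not planned. mt-Tr, the lowest of the 26, also had the lowest GC content, 22.1%, and mt-Tm (44.9%) and mt-Tp (44.8%) had the highest. Across the 15 tRNAs the correlation of log2 fold change with GC content was 0.81 (Pearson) and 0.82 (Spearman), and without mt-Tr it was 0.74 and 0.78 over 14 genes. Across the 9 mRNAs it was 0.57 and 0.47, which rests on mt-Nd3, since without it the values were 0.25 and 0.24 over 8 genes. In the table as a whole, the correlation over 13502 genes with a single annotation entry was -0.09 and -0.12. The points share both libraries and, for neighboring genes, a precursor, so these values describe the libraries and no p-value was computed. For 7 of the 15 tRNAs the interval of the fold held 0. The tRNA rows may also hold reads of precursors or neighboring genes, whose GC content need not be that of the tRNA gene.

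**Figure D4:**
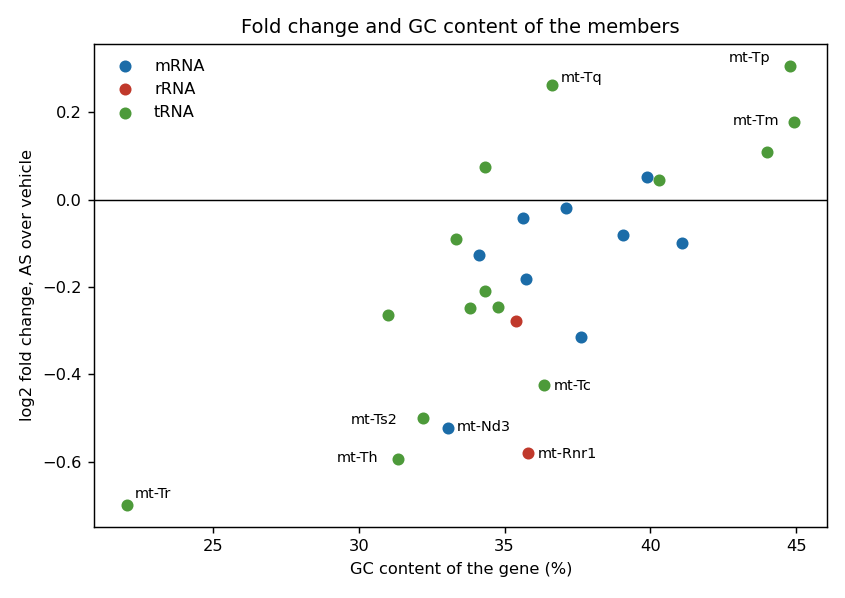
log2 fold change of AS over vehicle (y axis) against the GC content of the gene in percent (x axis) for the 26 genes, colored by RNA class. Each point is 1 gene compared between the 2 libraries; mt-Tr lies at the lower left and mt-Tp and mt-Tm at the upper right.

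A kit for mRNA is meant to leave out most RNA without a poly(A) tail, so nuclear RNAs of this kind were also looked up. Of 28 listed, 3 had a row. All 3 were past 2-fold lower with AS, where 0.31% of all genes were lower by as much. Their summed level was 2.07 RPKM with AS and 38.6 RPKM with the vehicle. The lowest mean over both libraries of any gene in the table was 29.5 reads. All 3 had fewer AS reads than this, so only their vehicle reads brought them to that mean. Rn7s1, a copy of the signal recognition particle RNA and by its mean over both libraries the most abundant of them, had 10 AS reads and 376 vehicle reads (0.742 and 24.7 RPKM), with a log2 fold change of -4.88 (-6.13 to -4.16). Rn7s2, another copy of it, had 16 and 68 reads (-1.82, interval -2.79 to -1.11). Rpph1, the RNA of nuclear ribonuclease P, had 2 and 154 reads (-5.32, interval -9.15 to -4.21). Since these 3 RNAs met the lowest mean only through vehicle reads, their direction and size are not compared with the mitochondrial rRNAs and tRNAs. Their part in the mitochondrial values was not tested.

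The nuclear-encoded partners of the mitochondrial subunits were also slightly lower with AS. Of 74 nuclear subunits of complexes I, III and IV and of ATP synthase that had a row, 66 were lower and 8 higher, where 60.9% of all genes were higher. Their median log2 fold change was -0.17, and that of all genes 0.07. None was past 2-fold, and Atp5me, a small membrane subunit of ATP synthase (42.3 RPKM with AS and 65.8 RPKM with the vehicle, -0.64), was the only one past 1.5-fold, against 0.31% and 2.01% of all genes lower by as much.

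In complex I, the 37 nuclear subunits had a median log2 fold change of -0.17 and the 7 mitochondrial ones a median of -0.13, a difference of 0.04. Without the mitochondrial genes that have a near-identical nuclear copy it turned to -0.012, with only mt-Nd1, mt-Nd2 and mt-Nd6 left. The lowest nuclear subunits were Ndufb3 (19.5 RPKM with AS and 29.0 RPKM with the vehicle, -0.57) and Ndufa8 (50.6 and 66.4 RPKM, -0.39). The highest were Ndufa6 (20.0 and 17.8 RPKM, 0.17) and Ndufs4 (44.5 and 41.3 RPKM, 0.11). In complex III all 9 nuclear subunits were lower, with a median of -0.17 and a range from -0.41 for Uqcr11 to -0.13 for Cyc1, the cytochrome c1 gene. mt-Cytb (-0.08) lay 0.09 above that median and, by value, above all 9. Its interval (-0.09 to -0.07) overlapped those of some of them, among them Cyc1 (-0.26 to -0.001). From these a difference was not detectable at this depth. In complex IV the median of 12 nuclear subunits was -0.18, and mt-Co1 lay 0.23 above it and, by value, above all 12. Its interval (0.04 to 0.06) lay within that of Cox6a1 (-0.12 to 0.13). With the chromosome 1 copies added, the 3 mitochondrial mRNAs of this complex had a median of -0.07, 0.11 above that of the nuclear subunits. This median was no longer above all 12. Cox7b (87.4 and 126 RPKM, -0.52) and Cox7c (15.7 and 19.7 RPKM, -0.32) were the lowest there, and Cox6a1 (0.01) and Cox4i1 (-0.02) the highest. For ATP synthase, 16 of 18 listed nuclear subunits had a row, with a median of -0.18, and besides Atp5me the lowest was Atp5mf (-0.43), while Atp5f1d (0.03) and Atp5if1 (-0.01), the inhibitor of the enzyme, were the highest. Both mitochondrial subunits of ATP synthase lack a row, and the copy of mt-Atp6 (-0.02) lay 0.16 above the nuclear median. In level, the mitochondrial mRNAs of complex I had a median of 1448 RPKM with AS and their nuclear partners one of 22.9 RPKM, and with the vehicle the medians were 1496 and 25.5 RPKM.

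**Figure D5:**
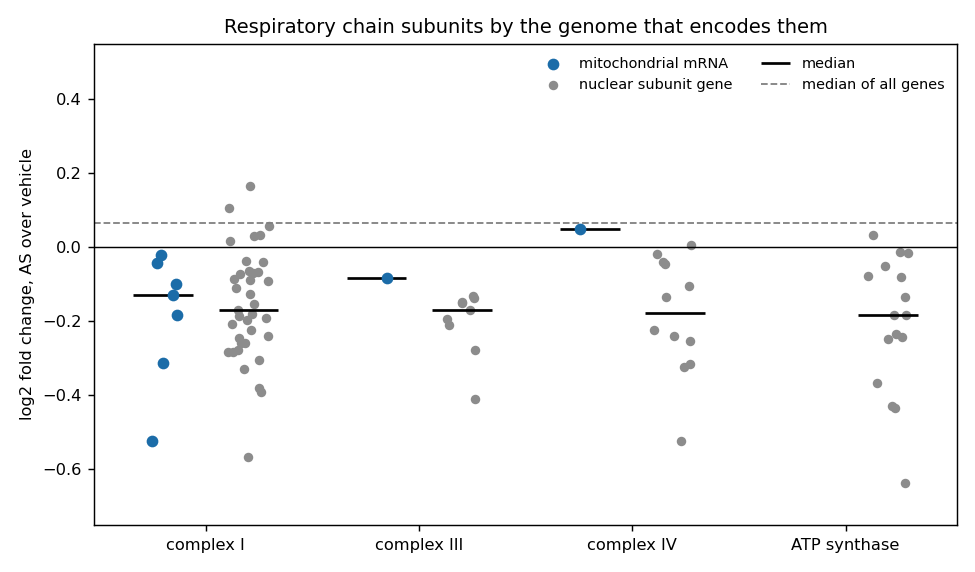
log2 fold change of AS over vehicle (y axis) of respiratory chain and ATP synthase subunits by complex (x axis), with blue points for mitochondrial mRNAs and grey points for nuclear subunit genes; horizontal bars are medians and the dashed line is the median of all genes. The nuclear medians lie between -0.18 and -0.17 in all 4 complexes, and mt-Co1 is the only mitochondrial mRNA above 0 (below 0 with TMM scaling).

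Of 11 genes for transcription of mitochondrial DNA and its control, 10 were higher with AS and 1 lower, where 60.9% of all genes were higher. Their median log2 fold change was 0.18, against 0.07 over all genes. With TMM scaling these medians were 0.12 and 0.0002. Of the 11 genes, 0 were past 1.5-fold, where 3.56% of all genes were higher and 2.01% lower by as much. Polrmt, the mitochondrial RNA polymerase, was at 3.60 RPKM with AS and 3.03 RPKM with the vehicle (0.24, interval 0.10 to 0.40). Tfb2m, which opens the promoter with it, was at 6.70 and 4.95 RPKM (0.43, interval 0.29 to 0.58). Mterf1b, of the mitochondrial transcription termination factor family, was at 3.09 and 2.26 RPKM (0.44), and Tefm, the elongation factor, at 6.16 and 5.28 RPKM (0.22). Tfam, which packages the DNA and activates its promoters, was at 15.3 RPKM with AS and 14.9 RPKM with the vehicle (0.04, interval -0.03 to 0.11). Mrpl12, a ribosomal protein that also binds the polymerase, was the 1 lower gene (56.1 and 59.8 RPKM, -0.09).

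Of 10 nuclear regulators of mitochondrial genes, 9 had a row, and 8 of these were higher (88.9%, against 60.9% of all genes), with a median of 0.23 (0.16 with TMM scaling). Myc was at 29.7 RPKM with AS and 23.1 RPKM with the vehicle (0.36) and Pprc1, a coactivator of the PGC-1 family, at 4.24 and 3.43 RPKM (0.30). Nrf1, the respiratory factor, was at 3.79 and 3.21 RPKM (0.23, interval 0.14 to 0.34). Ppargc1b was at 0.698 and 0.552 RPKM (0.29), with an interval from -0.04 to 0.72, and Ppargc1a had no row among those used here. Esrra (0.03) and Gabpb1 (-0.04) were the lowest.

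The genes that cut, polyadenylate and degrade mitochondrial RNA were spread around the median of all genes. Of 24, 15 (62.5%) were higher and 9 lower, near the 60.9% of all genes, with a median of 0.08 (0.02 with TMM scaling). The 4 listed genes of the enzymes that free the tRNAs from the precursor did not share a direction. Trmt10c, a subunit of mitochondrial ribonuclease P, was at 13.3 RPKM with AS and 10.5 RPKM with the vehicle (0.34, interval 0.24 to 0.44), and Elac2, which cuts the 3′ end of tRNAs, at 10.3 and 8.89 RPKM (0.21, interval 0.11 to 0.31). The other subunits of ribonuclease P were slightly lower, namely the nuclease Prorp (5.25 and 5.37 RPKM, -0.03, interval -0.15 to 0.09) and Hsd17b10 (60.3 and 63.4 RPKM, -0.07, interval -0.14 to -0.01). Fastkd5, which acts at junctions that lack a tRNA, was at 4.37 and 3.43 RPKM (0.34). The poly(A) polymerase Mtpap was at 3.01 and 2.41 RPKM (0.31). Lrpprc and Slirp, which together keep the mRNAs stable, had log2 fold changes of 0.17 and 0.02, and the exonuclease Pnpt1 one of -0.08. Endog, a nuclease gene, was the only one past 2-fold (0.649 and 1.43 RPKM, -1.03), from only 31 and 77 reads, and 0.31% of all genes were lower by as much.

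Of 28 genes that modify mitochondrial rRNA and tRNA, 21 (75%) were higher and 7 lower, against 60.9% of all genes higher, with a median of 0.15 (0.08 with TMM scaling). Qtrt2, a subunit of the queuine tRNA-ribosyltransferase, was at 5.68 RPKM with AS and 3.52 RPKM with the vehicle (0.68, interval 0.56 to 0.82), the only one of the 28 past 1.5-fold, where 3.56% of all genes were higher by as much. Mettl17, which acts on the small ribosomal subunit, was at 2.19 and 1.56 RPKM (0.47). Mto1, which modifies the wobble base of several tRNAs, was lowest, at 1.81 and 2.68 RPKM (-0.54, interval -0.77 to -0.37), and the methyltransferase Nsun2 followed (27.6 and 31.7 RPKM, -0.20).

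Of 25 genes for replication and maintenance of mitochondrial DNA, 16 (64%) were higher and 9 lower, near the 60.9% of all genes, with a median of 0.09 (0.02 with TMM scaling). Slc25a33, a carrier of pyrimidine nucleotides, was the only one past 2-fold, at 4.31 RPKM with AS and 1.64 RPKM with the vehicle (1.34, interval 1.12 to 1.67), and 0.662% of all genes were higher by as much. Twnk, the replicative helicase, was at 36.6 and 27.8 RPKM (0.40, interval 0.35 to 0.45), and Tk2, the mitochondrial thymidine kinase, at 6.40 and 4.66 RPKM (0.45). The DNA polymerase Polg was at 4.87 and 4.79 RPKM (0.02, interval -0.06 to 0.10). Dna2, a nuclease and helicase that also works in the nucleus, was at 0.837 and 1.40 RPKM (-0.68), and the adenine nucleotide carrier Slc25a5 at 33.0 and 42.1 RPKM (-0.35).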

How the data were processed

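The authors deposited 1 table for both libraries, with the RPKM of each gene, a log2 of the mean CPM, and their own log2 fold change, p-value and FDR, which were not used. The submitters' processing notes name fastp 0.23.4, STAR 2.5.3a and featureCounts, and list the build GRCh38 although the cells are murine. Annotation, strand setting, treatment of reads with several matches and any filter are not given in the sources used here. The RPKM unit was read from the values.

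Whole reads were recovered from the RPKM. Library sizes were fixed from the 15 tRNA lengths, and exon lengths were searched within 20% of that implied by the deposited log2 mean CPM. A value counted as whole within 1e-06 reads in both libraries. This gave reads for all 14197 genes, with more than 1 solution for 300, where the nearest was taken. The lengths equaled GENCODE M21 (GRCm38) for 94.1% of 13502 genes, and that annotation gave all coordinates and sequences. The lowest mean was 29.5 reads. Copies were found with BLAST 2.17.0 among annotated transcripts. Computations used Python 3.11.15 and scipy 1.17.1, and the recovery was tested on simulated data.

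Fold changes are log2((RPKM AS + 0.1)/(RPKM vehicle + 0.1)), which understates the change of low genes. Named are all 26 genes, and per list the 2 highest and 2 lowest folds among genes with a mean of at least 1 RPKM, any gene past 2-fold and a set of core genes. The chromosome 1 and 2 copies, the keratins, Prorp and Hsd17b10 were chosen after their values were seen. The comparison with GC content was not planned. The genes and lists were chosen with earlier results of these data known. The result of 1 listed marker is not reported here. Alternatives were 0 or 1 RPKM added, TMM and median-of-ratios scaling of the reads, totals without the mitochondrial rows, and a minimum of 1 RPKM.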

Additional observations from a re-analysis of the deposited data

How the results depend on the processing

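No test was run, so an alternative can move a value but no call. TMM and median-of-ratios scaling lowered each member's log2 fold change by 0.07 and gave class medians of -0.17 for mRNAs, -0.50 for rRNAs and -0.28 for tRNAs. Both put 4 genes past 1.5-fold (mt-Rnr1 and mt-Nd3 joined mt-Tr and mt-Th) where the authors' scaling put 2, and 0 past 2-fold. Scaling to the summed mitochondrial mRNA reads gave class medians of 0.0014, -0.33 and -0.11, with 1 gene past 1.5-fold and mt-Ta also above 0 (0.01). This scaling, and the settings on copies, were chosen after seeing the data. Without mt-Co1, mt-Nd3, mt-Nd4l, mt-Nd4 and mt-Nd5, which have an annotated nuclear copy of at least 95% identity over at least 50% of their length, the mRNA median was -0.15 and the complex I difference turned to -0.012. No mRNA of complex IV is left then. The complex I value then rests on mt-Nd2, the median of the genes left. The copy of mt-Nd2 itself has 96.7% identity over 49.1% of its length and just misses this rule. With the chromosome 1 copies added the mRNA median was -0.091, and these rows took 3.09% of the AS library and 3.28% of the vehicle library.

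The median of the 7 nuclear lists, 0.12, was 0.094 with 1 RPKM added, 0.056 with TMM and with median-of-ratios scaling, and 0.22 when scaled to the mitochondrial mRNAs. With 1 RPKM added the complex I difference was 0.017. The share of the 26 genes in AS and vehicle was 1.73% and 1.86% in reads, 5.37% and 5.60% of the RPKM over genes with a mean of at least 1 RPKM, and 6.67% and 7.02% without the 20 other genes of the highest mean RPKM. It was lower with AS in each. The difference for complex IV was 0.11 with the chromosome 1 copies added, and those for complexes III and IV stayed above 0 under every alternative run. No paired analysis was possible because each condition has 1 library, and no library could be left out. Low read numbers leave wide intervals for mt-Tq, mt-Tw, mt-Ta, mt-Tn, mt-Tc and mt-Tt.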

Other observations

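Mitochondrial stress genes and translation factors were listed beside the genes above. Of 26 stress genes 24 had a row, with 14 (58.3%) higher and 10 lower with AS, near the 60.9% of all genes higher. The median log2 fold change was 0.08, near that of all genes (0.07). With TMM scaling the list median was 0.01. Past 2-fold were Ddit3 (1.68), Mthfd2, a mitochondrial folate enzyme (31.5 RPKM with AS and 11.7 RPKM with the vehicle, 1.42), and Atf5, a transcription factor of the mitochondrial stress response (25.7 and 12.3 RPKM, 1.05, interval 0.96 to 1.16). Over all genes, 0.662% were higher by as much. At 1.5-fold, 5 of the 24 were higher and 0 lower, where 3.56% of all genes were higher and 2.01% lower by as much. The list median thus lay near that of all genes while its share past either threshold was larger on the higher side. The inner membrane scaffold genes Phb (24.3 and 30.4 RPKM, -0.32) and Phb2 (18.2 and 21.5 RPKM, -0.24) were the lowest. Fgf21 and Gdf15 had no row among those used here.

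Of 20 mitochondrial translation factors, 16 (80%) were higher and 4 lower, against 60.9% of all genes higher, with a median log2 fold change of 0.15 (0.08 with TMM scaling) and 0 past 1.5-fold, where 3.56% of all genes were higher and 2.01% lower by as much. Ddx28, a helicase of ribosome assembly (5.04 and 4.14 RPKM, 0.28), and Mtg1, a GTPase of ribosome assembly (1.69 and 1.39 RPKM, 0.26), were highest. The elongation factors Tufm (33.5 and 40.7 RPKM, -0.28) and Tsfm (7.99 and 8.75 RPKM, -0.13) were lowest. Over the 7 nuclear lists, the stress list included, 100 of 141 genes were higher, or 70.9% against 60.9% of all genes. Past 2-fold, 4 were higher (Ddit3, Mthfd2 and Atf5 of the stress list, and Slc25a33) and 1 was lower (Endog), where 0.662% of all genes were higher and 0.31% lower by as much.

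The epithelial keratins differed more between the libraries than most mitochondrial genes. Krt14 had a log2 fold change of -0.96, Krt19 of -0.73, Krt8 of -0.54 and Krt18 of -0.35, while Esrp1 (0.47) and Cdh1 (0.17) were higher with AS.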
